A study of Mus musculus with 36 samples.

Results

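Among 18 mouse lung tumours made with the guide sgSetd2, the 6 with the highest and the 6 with the lowest expression of a set of dividing-cell genes were compared. The 12 tumours were selected on measured values, by the mean log2(CPM + 1) (CPM being counts scaled to a total of 1000000 per tumour) of Mki67, Top2a, Ccna2, Cdk1, Bub1 and Aurkb. Of the 36 tumours in the series, 12 entered the comparison, 6 sgSetd2 tumours lay between the groups, and 18 tumours made with the guide sgNeo were not used in the choice. The 6 score genes were left out of all results below.

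All tumours were driven by the fusion oncogene EML4-ALK, in the version called Variant 1 or the version called Variant 3, and each variant was combined with each guide in 9 tumours. By the labels, sgSetd2 tumours lacked functional Setd2, the enzyme that places the H3K36 trimethyl mark, whereas sgNeo tumours kept it. EGFP-positive neoplastic cells were sorted from each lung tumour and profiled by RNA sequencing. Each tumour carries a code in its title, with 3 tumours to a code, and the labels do not say whether a code is an animal. Strain, age and sex are not in the labels, nor is the promoter or cell type through which the fusion was started. Tumours of a code may therefore not be independent, and p-values then measure only the spread between these samples.

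A dividing cell copies its DNA in S phase and separates the chromosomes in mitosis. Genes of S phase, such as those for the MCM helicase, are switched on mainly by E2F factors at the end of G1. Genes of G2 and mitosis are switched on later, through B-MYB and FOXM1, after repression by the DREAM complex is lifted. Control of these genes uses CCAAT and CHR elements close to the start site. In lung adenocarcinoma that arises from alveolar type 2 cells, tumours differ in the share of cells that are in cycle. In bulk RNA, more cycling cells and more cell cycle RNA per cycling cell cannot be told apart.

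The 6 highest scores were 4.84 in CE450_1, 4.2 in CE456_6, 4.03 in CE450_3, 3.80 in CE450_5, 3.67 in CE456_9 and 3.38 in CE475_1. The 6 lowest were 1.77 in CE483_3, 1.96 in CE475_2, 2.06 in CE483_4, 2.21 in CE454_3, 2.41 in CE456_10 and 2.72 in CE454_5. Just outside the groups, CE479_2 had 3.27 and CE483_1 had 2.79. The scores thus formed a continuum, and no low-score tumour was without cell cycle RNA. The 6 tumours are called low-score here and not quiescent, because none of the 6 scores was near 0. The sgNeo tumours ranged from 1.52 to 5.76, wider than the sgSetd2 tumours at both ends.

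**Figure D1:**
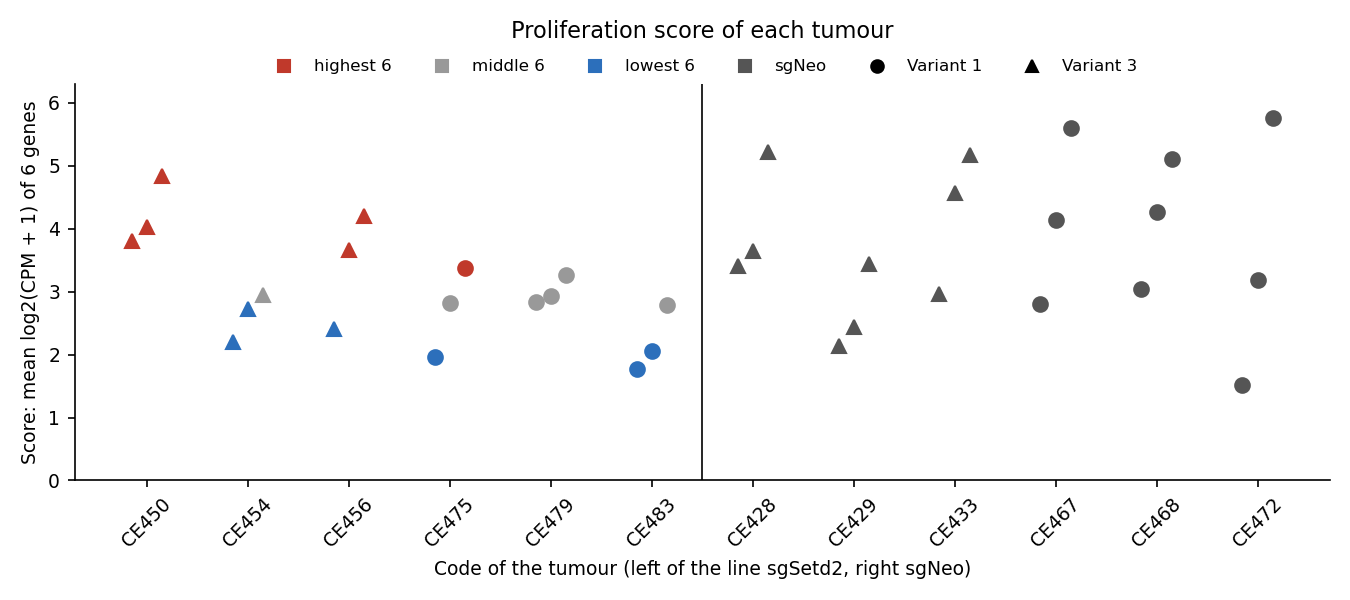
Score of each of the 36 tumours (y axis, mean log2(CPM + 1) of 6 genes) by tumour code (x axis), with circles for Variant 1 and triangles for Variant 3. Red, grey and blue points are the highest 6, middle 6 and lowest 6 sgSetd2 tumours, and dark grey points are sgNeo; the scores of 3.38 and 3.27 on either side of the upper limit are close.

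The groups were not balanced for variant or code. High-score tumours were 1 of Variant 1 (CE475_1) and 5 of Variant 3. Low-score tumours were 3 and 3, so variant was a covariate. All tumours of a code were of the same variant. All 3 tumours of CE450 were high-score, no tumour of CE454, CE479 or CE483 was, and only CE456 and CE475 had tumours in both groups. Judged by the Y-linked gene Ddx3y, 4 of 6 high-score and 1 of 6 low-score tumours came from male codes. Code and score group can therefore be told apart only in CE456 and CE475. Total counts were 22.6 to 105.2 M (1 M being 1000000 counts) in the 18 sgSetd2 tumours, with means of 50.9 ± 29.0 M (SD, n = 6) in high-score and 47.6 ± 13.2 M (SD, n = 6) in low-score tumours (exact two-sided permutation p = 0.870, with 0.00217 the smallest possible).

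Setd2, the targeted gene, was at 26.8 to 59.7 CPM in the high-score tumours with a median of 35.5 CPM. In the low-score tumours it was at 25.1 to 90.8 CPM with a median of 40.2 CPM, and the sgNeo tumours had 43.2 to 95.0 CPM with a median of 59.2 CPM. The groups overlapped, with means of 38.2 ± 11.6 and 44.3 ± 24.3 CPM (SD, n = 6 each; exact two-sided permutation p = 0.664). The library labelled sgSetd2 and named CE456_10, a low-score tumour, had the highest level of the sgSetd2 tumours at 90.8 CPM, within the sgNeo range. CE456_9, a high-score tumour, was also within that range at 59.7 CPM, just above the sgNeo median. CE454_5, CE479_2 and CE479_4 were within it too, near its lower end. Lying in the sgNeo range was thus not particular to CE456_10. RNA cannot decide whether its label holds, because a guide can inactivate a gene without lowering its RNA. Without CE456_10 the difference of means turned from -6.13 to 3.17 CPM. Values without this tumour are given below where they moved by over 1.5 times. Eml4 and Alk, the partners of the fusion, had log2 fold changes of 0.18 (SE 0.14) and 0.29 (SE 0.18), neither past the test.

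Most markers of lymphoid, macrophage and endothelial cells were near 0, while the general leukocyte list was not. Of 16 T and NK cell markers 13 were under 1 CPM in all 12 tumours, with Cd3d, Cd2, Ncr1, Gzma and Nkg7 at 0, and of 6 B cell markers 5 were under 1 CPM. Of 16 macrophage markers 11 were under 1 CPM in all 12, and the 16 summed to 13.8 to 23.9 CPM in high-score and 8.41 to 28.0 CPM in low-score tumours. The 10 endothelial markers summed to under 10 CPM in each of the 12 tumours. Of 8 neutrophil markers, Csf3r and Mmp9 were at 0 in all 12, while the list summed to 11.8 to 67.2 CPM in high-score and 7.60 to 39.8 CPM in low-score tumours. The 8 leukocyte markers, 4 of them under 1 CPM in all 12, summed to 259.6 to 465.5 CPM in high-score and 152.8 to 405.1 CPM in low-score tumours. The 10 fibroblast and smooth muscle markers summed to 9.47 to 72.1 CPM and 1.33 to 97.9 CPM, and the ranges of both lists overlapped. The part of such cells in the results was not tested. The 18 alveolar type 2 cell markers made up 136700 to 185400 CPM in high-score and 139500 to 220300 CPM in low-score tumours, so the labelled neoplastic lung epithelium carried its markers in both groups.

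Genes of mitosis outside the score went with it more than genes of DNA replication. These lists share biology with the genes that chose the tumours, so their values are a description without a test. The score genes are mainly genes of G2 and mitosis, so the choice of tumours itself favours mitotic over replication lists. Of 56 spindle, kinesin and cytokinesis genes tested, 52 were higher in high-score tumours, with a median log2 fold change of 1.03, against 50.5% of all 14892 genes with a median of 0.0035. No overlap between the 6 and 6 tumours was seen for 7 of the 56, where 0.524% of all genes were higher without overlap. The summed level of this list was 886 to 1673 CPM in high-score and 532 to 1056 CPM in low-score tumours. Kinetochore and centromere genes were higher in 27 of 33 (median 0.83), and mitotic kinases, cyclins and checkpoint genes in 28 of 33 (median 0.60). Condensin and cohesin genes were higher in 11 of 15, with a median of 0.13.

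Hmmr, which encodes a spindle assembly protein, had 5.57 CPM in the lowest, a median of 13.5 CPM and 20.2 CPM in the highest of the high-score tumours. The low-score tumours had 0.493, 3.35 and 5.54 CPM, a narrow gap between the groups, and the fold change was 3.91 (log2 fold change 1.97, SE 0.46). Among the middle tumours CE479_2 had 26.8 CPM, above every high-score tumour, so the score and Hmmr did not order these tumours alike. Aspm, which holds spindle poles, had 3.03, 5.29 and 13 CPM (lowest, median, highest) in high-score tumours. In low-score tumours it had 0, 1.22 and 2.60 CPM, with a log2 fold change of 2.21 (SE 0.88). Melk, a mitotic kinase gene, had 4.43, 6.73 and 8.84 CPM against 0, 1.56 and 2.23 CPM (log2 fold change 2.07, SE 0.64). The groups did not overlap for Hmmr, Aspm or Melk, a property that the choice of tumours favours.

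Plk1, the kinase of mitotic entry, had 2.65, 8.37 and 17.9 CPM in high-score and 1.23, 1.99 and 4.61 CPM in low-score tumours, and the groups overlapped. Nuf2, part of the NDC80 complex that ties kinetochores to microtubules, had 1.81, 6.69 and 18.4 CPM against 1.11, 1.44 and 2.10 CPM. Cenpe, a kinetochore motor, had 6.20, 15.5 and 20.8 CPM against 0.320, 2.02 and 17.1 CPM. The 17.1 CPM belonged to CE456_10, while the other low-score tumours had at most 2.63 CPM. Esco2, which acetylates cohesin in S phase, had 5.93, 13.1 and 31.5 CPM against 1.84, 4.86 and 8.35 CPM, and Ncapd2, a condensin subunit, had a log2 fold change of 0.96 (SE 0.38).

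Replication genes showed smaller differences. Of 25 genes for origin licensing and firing, 11 were higher and 14 lower in high-score tumours, with a median log2 fold change of -0.03. This list summed to 351 to 478 CPM in high-score and 322 to 474 CPM in low-score tumours, nearly the same ranges. Replication fork genes were higher in 24 of 35 (median 0.19) and nucleotide synthesis genes in 16 of 26 (median 0.10). The histone genes were higher in 8 of 22 (median -0.12), and E2F, Rb and DREAM regulators in 8 of 19 (median -0.06). 

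Within the replication lists the named members spread widely. Rrm2, the regulated subunit of ribonucleotide reductase, had 9.55, 16.9 and 48.5 CPM in high-score and 0, 5.13 and 15.0 CPM in low-score tumours (log2 fold change 1.41, SE 0.91). Its 0 was in CE456_10, which also had the lowest Pola1 of the 12 tumours, beside the highest Cenpe of the low-score group. Cdc7, the kinase that fires origins, had 6.77, 9.04 and 11.7 CPM against 0, 4.28 and 7.58 CPM, with 0 in both CE483_3 and CE483_4. Tyms, thymidylate synthase, had 18.2, 21.3 and 27.2 CPM against 9.70, 13 and 18.7 CPM (log2 fold change 0.58, SE 0.17), which overlapped slightly. Uhrf1, which brings DNA methylation to new strands, had a log2 fold change of 0.82 (SE 0.51), which turned to -0.14 with sex as a covariate. Homologous recombination and repair genes were higher in 31 of 39, with a median of 0.17. Hmgb2 and Lmnb1, a chromatin and a lamina protein of dividing cells, had 0.49 (SE 0.22) and 0.46 (SE 0.19).

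Cell cycle values depended in part on CE456_10 and on the codes. Without CE456_10 the median log2 fold change was 1.29 for spindle, 0.67 for kinetochore and 0.36 for condensin and cohesin genes. It was 0.02 for nucleotide synthesis, -0.05 for origin licensing and -0.16 for E2F, Rb and DREAM genes, and that of histone genes turned to 0.27. Cenpe had 3.12 without this tumour, and Rrm2 had 0.99. With code as a block the medians were 0.77 for spindle, 0.43 for kinetochore, 0.04 for replication fork and 0.41 for homologous recombination genes, and that of origin licensing genes turned to 0.12. The spindle and kinetochore medians thus stayed above 0, while those of the replication lists stayed near 0 or moved across it. The make-up of the score favours this contrast. Among single genes the block gave 1.12 for Aspm, 1.02 for Plk1, 1.32 for Melk, 1.13 for Cenpe, 0.63 for Cdc7 and 3.94 for Rrm2, and 1.81 for Hmmr.

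**Figure D2:**
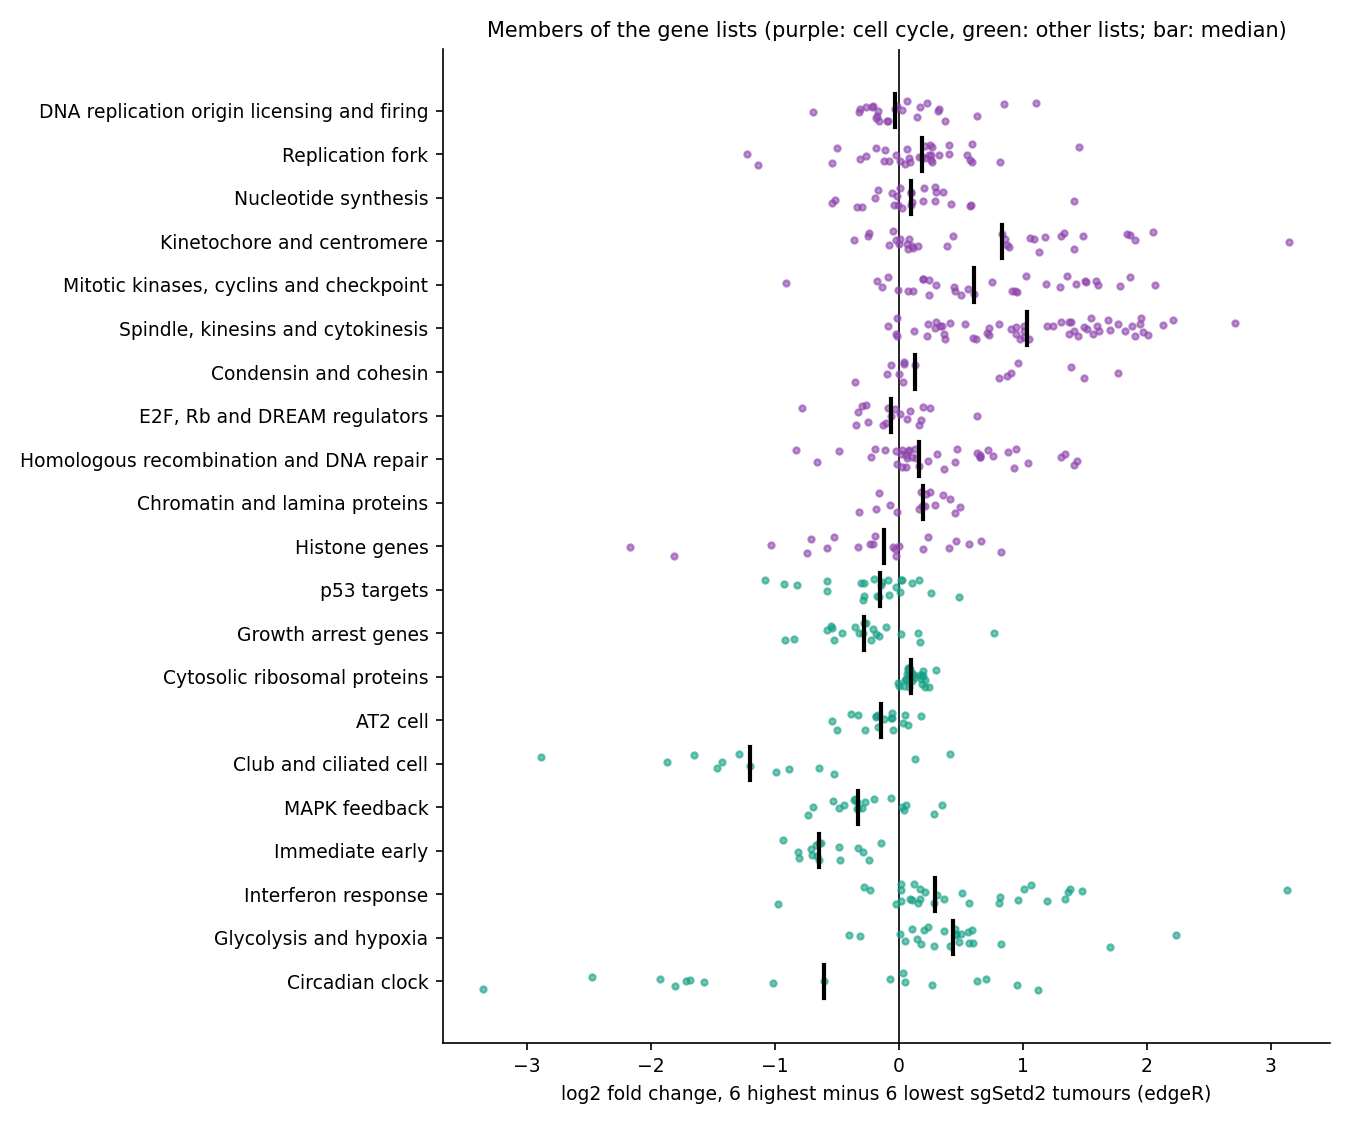
Each point is a tested gene of a list (y axis) at its log2 fold change between the 6 highest and 6 lowest sgSetd2 tumours (x axis, edgeR), and black bars are list medians. Spindle genes centre on 1.03 and origin licensing genes on -0.03, and glycolysis genes lie mostly above and immediate early genes entirely below 0.

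Outside the cell cycle lists the comparison asked which other genes went with the score. By edgeR's quasi-likelihood test with Benjamini-Hochberg adjustment, 0 of 14892 genes passed (0.0%), the smallest adjusted p being 0.0753. At an unadjusted p under 0.05, 365 of all 14892 genes (2.45%) were higher and 476 (3.2%) lower in high-score tumours. Of these, 62 higher and 6 lower were in the cell cycle lists. DESeq2 called 170 higher (0.673% of 25262) and 80 lower (0.317%), of which 19 higher and 0 lower were cell cycle genes. Leaving out CE456_10, edgeR called 19 higher and 22 lower. Of the 19, 9 were cell cycle genes and 4 were the glycolysis genes Slc16a3, Pgam1, Tpi1 and Pgk1, and the 22 held Csf2, Pdlim2, Osbpl3, Afap1l1 and Dusp7. A slope on the score over the 18 sgSetd2 tumours called 24 rising (0.141% of 16982) and 12 falling (0.0707%), and 18 of the 24 were cell cycle genes. No gene below is described as changed on the sgSetd2 comparison, and its values are given instead.

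Of the 37 lists outside the cell cycle, that of glycolysis and hypoxia had the most members that were higher at an unadjusted p under 0.05. Its members are called glycolysis genes throughout, although the list was drawn up for both. Glycolysis turns glucose into pyruvate and lactate, and several of its genes also answer to hypoxia through HIF factors. Of 24 genes, 22 were higher in high-score tumours, with a median log2 fold change of 0.43, and 13 were higher at an unadjusted p under 0.05, where the share of all genes was 2.45%. DESeq2 called 10 of the 24 higher, against 0.673% of all genes. The groups did not overlap for 5 of the 24, against 0.524% of all genes that were higher without overlap. The summed level of the 24 genes was 7811 to 9130 CPM in high-score tumours. The low-score tumours had 5930 to 8335 CPM with a median of 6239 CPM, and the 8335 CPM was in CE456_10. The median log2 fold change of this list ran from 0.27 to 0.47 over the alternatives, the lowest being the slope over 18 tumours, which is per unit of score.

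To show the start-site sequence of members that stood together, the 250 bases before the most upstream RefSeq start (build GRCm38.p6) are printed for 2 spindle genes and 3 glycolysis genes. Capitals mark CCAAT or its reverse complement in Hmmr and Aspm, and the hypoxia response core, ACGTG or GCGTG on either strand, in Slc16a3, Pgam1 and Pdk1. The window of Slc16a3 lies inside the gene as GENCODE vM21 draws it, after the first exon of a longer transcript.
Hmmr (chr11:40733438-40733687, minus strand): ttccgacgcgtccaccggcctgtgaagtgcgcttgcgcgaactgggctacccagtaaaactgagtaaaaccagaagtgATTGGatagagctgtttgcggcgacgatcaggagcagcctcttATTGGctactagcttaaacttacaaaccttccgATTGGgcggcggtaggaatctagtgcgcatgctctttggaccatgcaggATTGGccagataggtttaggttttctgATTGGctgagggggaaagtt
Aspm (chr1:139454523-139454772, plus strand): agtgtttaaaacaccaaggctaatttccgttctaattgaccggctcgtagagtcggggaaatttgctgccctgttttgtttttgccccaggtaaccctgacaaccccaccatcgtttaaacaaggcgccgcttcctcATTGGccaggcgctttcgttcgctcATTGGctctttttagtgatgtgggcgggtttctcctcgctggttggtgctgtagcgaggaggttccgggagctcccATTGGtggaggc
Slc16a3 (chr11:120948817-120949066, plus strand): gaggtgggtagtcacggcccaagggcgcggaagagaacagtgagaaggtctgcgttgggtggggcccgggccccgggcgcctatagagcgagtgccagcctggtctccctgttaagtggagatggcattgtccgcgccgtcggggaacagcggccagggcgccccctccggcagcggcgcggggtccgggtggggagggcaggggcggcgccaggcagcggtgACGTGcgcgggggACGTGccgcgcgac
Pgam1 (chr19:41911621-41911870, plus strand): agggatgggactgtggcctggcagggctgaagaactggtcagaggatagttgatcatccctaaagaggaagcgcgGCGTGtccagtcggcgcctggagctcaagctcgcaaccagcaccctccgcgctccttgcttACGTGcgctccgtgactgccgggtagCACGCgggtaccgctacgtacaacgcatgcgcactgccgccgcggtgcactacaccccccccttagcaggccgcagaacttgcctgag
Pdk1 (chr2:71872974-71873223, plus strand): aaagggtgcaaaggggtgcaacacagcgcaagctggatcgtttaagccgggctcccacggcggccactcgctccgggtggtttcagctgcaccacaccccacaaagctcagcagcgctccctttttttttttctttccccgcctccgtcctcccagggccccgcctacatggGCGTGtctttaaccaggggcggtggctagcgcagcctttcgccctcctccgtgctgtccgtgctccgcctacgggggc

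Hmmr held 5 CCAAT matches and Aspm held 3, and neither window held the CHR element TTTGAA. In windows of the same length, 34.5% of 27025 genes held CCAAT, against 31 of 47 spindle genes in the RefSeq table (66.0%). TTTGAA, also searched on both strands, was in 16.3% of all windows and 31.9% of the spindle genes' windows. The hypoxia core was matched 2 times in Slc16a3, 3 times in Pgam1 and 1 time in Pdk1. It was in 38.6% of all windows and in 17 of 23 genes of the glycolysis and hypoxia list (73.9%). It was also in 48.9% of the spindle genes, with ACGTG overlapping the E-box CACGTG. The glycolysis and hypoxia list was drawn up in part for hypoxia, so its make-up favours a high share of the hypoxia core. A match is a description of letters and not a bound site.

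Slc16a3 (chr11:120948480-120960868, plus strand), which encodes the lactate exporter MCT4, had 7.32, 11.7 and 16.5 CPM in high-score tumours. The low-score tumours had 1.08, 1.94 and 4.35 CPM, so the groups stood apart by a fold of 4.70 (log2 fold change 2.23, SE 0.36; edgeR adjusted p = 0.0878). The middle tumours spanned 1.80 to 21.8 CPM, and CE479_2, the middle tumour with the highest score, had the 21.8. Without CE456_10 the log2 fold change was 2.47 and the adjusted p by edgeR was 0.0325. Adjusted p ran from 1.20e-06 to 1.0 over the alternatives.

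Pgam1 (chr19:41911923-41918660, plus strand), phosphoglycerate mutase, had 69.3, 86.2 and 93.4 CPM against 40.4, 48.4 and 65.8 CPM, again without overlap. Its log2 fold change was 0.59 (SE 0.10; edgeR adjusted p = 0.0878). Pdk1, a pyruvate dehydrogenase kinase gene, had 53.7, 61.5 and 68.3 CPM against 35.5, 40.4 and 46.3 CPM (log2 fold change 0.56, SE 0.11; edgeR adjusted p = 0.130). Pkm, pyruvate kinase, named after its values were seen, had 987, 1031 and 1146 CPM against 532, 699 and 895 CPM, also without overlap. Tpi1, triosephosphate isomerase, had log2 fold change 0.48 (SE 0.10), Pgk1 0.46 (SE 0.11), Eno1 0.41 (SE 0.10) and the glucose transporter Slc2a1 0.50 (SE 0.13), each with overlap and each named after its values were seen. Ldha, lactate dehydrogenase, was different, with 0.24 (SE 0.20), an adjusted p by edgeR of 0.999 and 0.08 without CE456_10.

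The other genes named by smallest p that were higher were Tmprss11g and Ptges. Tmprss11g (chr5:86485876-86518600, minus strand), of a family of membrane serine proteases, had 14.1, 37.0 and 53.3 CPM against 1.43, 6.72 and 17.0 CPM, with overlap (log2 fold change 1.79, SE 0.29; edgeR adjusted p = 0.0878). The middle tumours ran from 1.07 to 92.0 CPM. Ptges, microsomal prostaglandin E synthase, had 189.8, 278 and 349 CPM against 94.0, 140.0 and 171 CPM without overlap (log2 fold change 0.78, SE 0.15; edgeR adjusted p = 0.130).

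Csf2 had the smallest p of the named genes that were lower in high-score tumours. Csf2 (chr11:54247271-54249667, minus strand) encodes GM-CSF, a cytokine for macrophages of the alveoli. It had 3.25, 5.42 and 10.4 CPM in high-score and 13.2, 20.6 and 32.0 CPM in low-score tumours, without overlap (log2 fold change -1.67, SE 0.25; edgeR adjusted p = 0.0753). The middle tumours had 11.0 to 24.9 CPM, each above every high-score tumour. Pdlim2 (chr14:70164218-70177681, minus strand), an adaptor that promotes degradation of NF-kappaB p65, had 53.1, 67.1 and 106 CPM against 109, 131 and 172 CPM (log2 fold change -0.82, SE 0.12; edgeR adjusted p = 0.0753). Osbpl3 (chr6:50293330-50456201, minus strand), an oxysterol-binding protein gene, had 30.6, 32.8 and 37.5 CPM against 38.4, 47.2 and 79.1 CPM (log2 fold change -0.76, SE 0.12; edgeR adjusted p = 0.0753).

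Afap1l1, an actin filament protein gene, had 15.3, 23.9 and 35.7 CPM against 44.0, 55.0 and 108 CPM, without overlap (log2 fold change -1.22, SE 0.21; edgeR adjusted p = 0.0894), and -0.74 with code as a block. Dusp7, an ERK phosphatase, had 16, 21.6 and 42.7 CPM against 37.5, 47.7 and 55.9 CPM, where the 42.7 was in CE475_1 (log2 fold change -0.94, SE 0.17; edgeR adjusted p = 0.130). Over all genes 0.161% were lower without overlap, 24 in number.

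**Figure D3:**
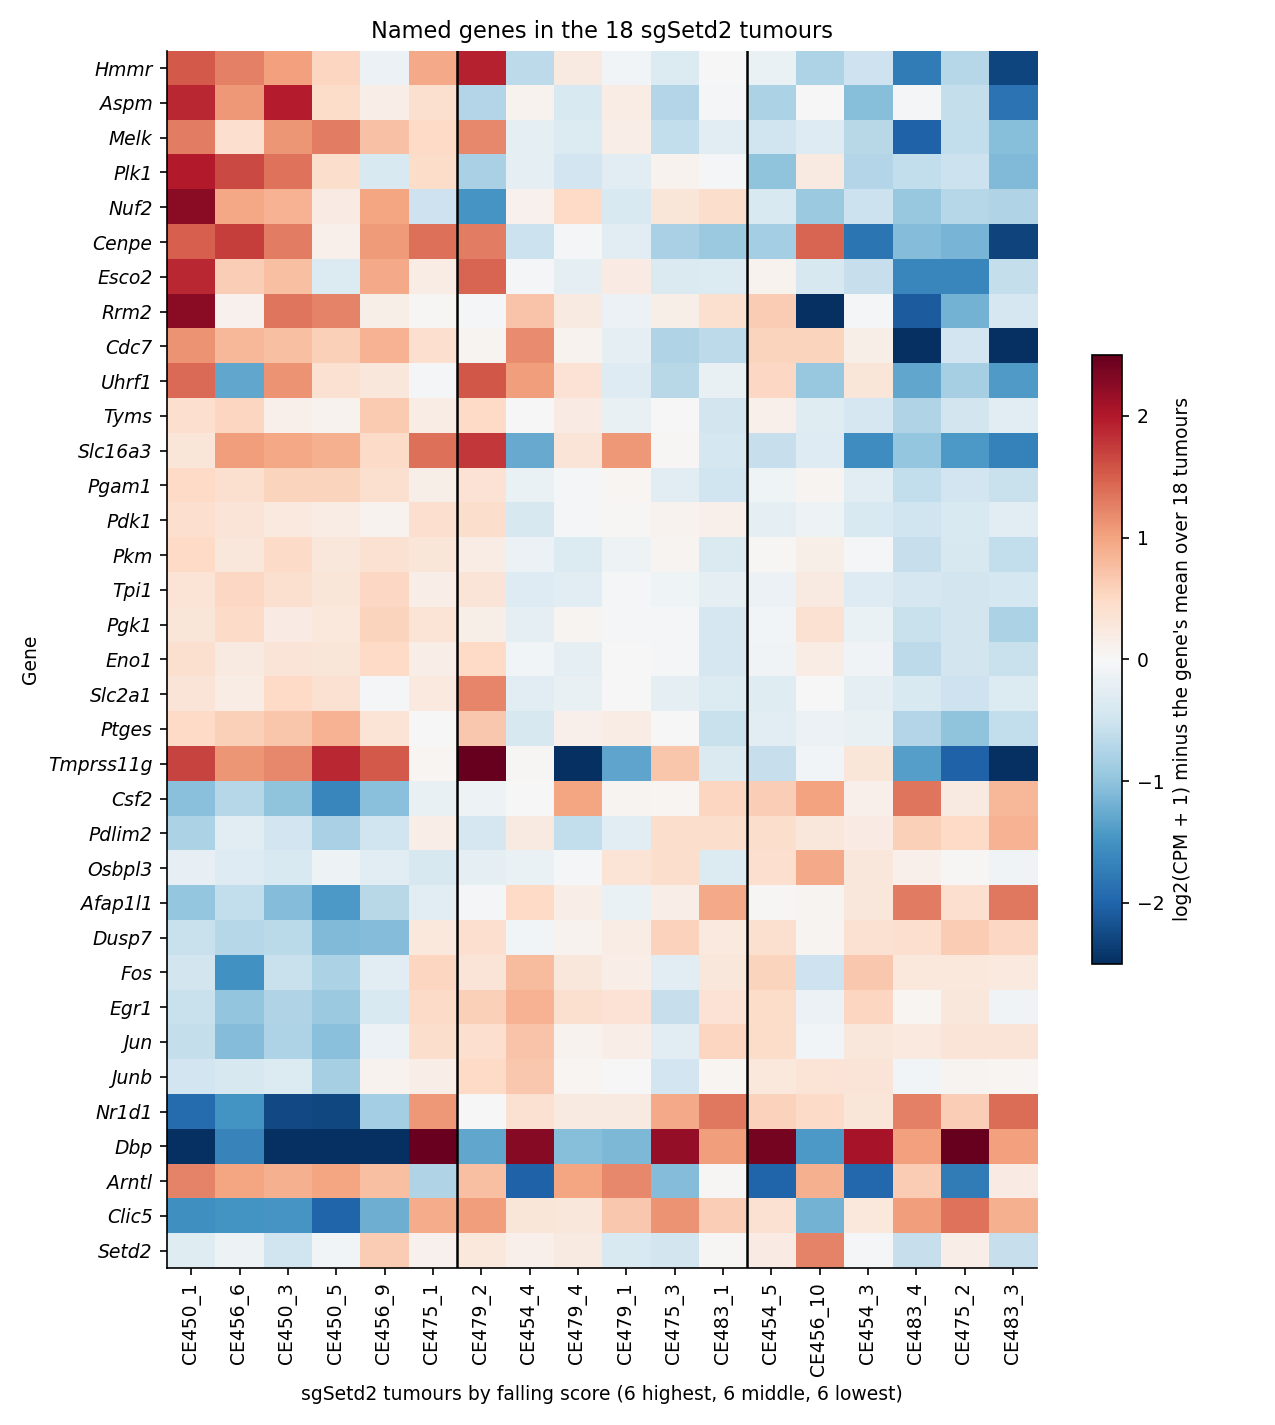
Colour gives log2(CPM + 1) of each named gene (rows) minus its mean over the 18 sgSetd2 tumours (columns, by falling score), with lines between the 6 highest, 6 middle and 6 lowest. The mitotic and glycolysis rows are mostly red on the left and Csf2 is blue there, while Dbp, Arntl and Clic5 change from tumour to tumour with the code in the tumour's name.

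The codes CE456 and CE475, which held tumours of both groups, gave comparisons within a code. In CE475, 1 high-score tumour was set against 1 low-score tumour, and in CE456 2 against 1, and the values of each code are given without a test. In CE475, 21 of 24 glycolysis genes were higher in the high-score tumour, with a median log2 difference of 0.61, against 66.5% of all genes with a median of 0.15. In CE456, 17 of 24 were higher, with a median of 0.24, against 46.2% of all genes with a median of -0.05. Spindle genes were higher in 49 of 56 (median 0.89) in CE475 and in 33 of 56 (median 0.21) in CE456. The edgeR fit with code as a block, in which these 2 codes alone bear on the difference, called 0 of 14892 genes (smallest adjusted p = 0.475). At an unadjusted p under 0.05 it had 729 genes higher and 435 lower. Its log2 fold change was 2.15 for Slc16a3 (SE 0.62; edgeR adjusted p = 0.523), 0.44 for Pgam1 (SE 0.12) and -1.41 for Csf2 (SE 0.35). The block moved 27 of 53 named log2 fold changes by over 1.5 times or across 0, among them those of mitotic, immediate early and clock genes, and left those of the 9 named glycolysis genes within that range. These 9 were named from the same tumours, by smallest p or after their values were seen, so their steadiness is a description and not a test.

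Immediate early genes were lower in high-score tumours as a list, but not within CE475. These genes, such as Fos, Egr1 and Jun, are switched on within minutes by growth factor signalling or by stress. All 16 tested were lower in high-score tumours, with a median log2 fold change of -0.64, and 8 were lower at an unadjusted p under 0.05, against 3.2% of all genes. Their sum was 5926 to 17770 CPM in high-score and 11040 to 19140 CPM in low-score tumours. Fos ran from 1095 to 4566 CPM in high-score tumours with a median of 2197 CPM, and the 4566 CPM was in CE475_1. Within CE475, 16 of 16 were higher in the high-score tumour, and in CE456 3 of 16 were. Without the code CE454 the median of the list turned to 0.02, and that of MAPK feedback genes turned from -0.33 to 0.0003. With code as a block the medians were -0.06 and -0.0023, and Fos had -0.05, Egr1 -0.22 and Jun -0.24.

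Genes of the circadian clock, a list added after the values were seen, differed by code. Dbp, a clock output factor, was at 0.265 to 0.647 CPM in the 3 tumours of CE450 and at 0.637 to 2.43 CPM in CE456. It was at 2.76 to 3.44 CPM in CE479, 17.9 to 18.2 CPM in CE483, 37.8 to 47.7 CPM in CE454 and 41.7 to 53.3 CPM in CE475. The high-score tumour of CE475 had 50.2 CPM and the low-score tumour 53.3 CPM. In CE456 the high-score tumours had 0.637 and 1.91 CPM and the low-score tumour 2.43 CPM. Arntl, the BMAL1 gene, whose RNA peaks opposite to Dbp, was at 42.0 to 54.1 CPM in CE450 and 38.4 to 45.6 CPM in CE456. It was at 4.77 to 4.98 CPM in CE454 and 5.98 to 12.9 CPM in CE475, the codes with the most Dbp. Nr1d1, the REV-ERB alpha gene, had 10.4 to 13.6 CPM in CE450 and 131 to 144 CPM in CE483. In CE456, unlike Dbp, it had 18.6 and 29.6 CPM in the high-score tumours and 75.8 CPM in the low-score tumour.

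In the comparison of score groups Dbp had a log2 fold change of -3.35 (SE 1.13) and Nr1d1 of -1.57 (SE 0.33), neither past the test with edgeR. With code as a block these became -0.61 and -0.81. Clic5, a chloride channel gene of alveolar type 1 cells, behaved likewise, at 18.7 to 27.2 CPM in CE450, 27.0 to 33.7 CPM in CE456 and 93.6 to 199.4 CPM in the 12 tumours of the other codes. Its log2 fold change of -1.19 (SE 0.29) became -0.31 with the block. Clic5 had the lowest value of the 12 alveolar type 1 cell genes tested, of which 9 were lower and 3 higher. The median of that list was -0.14, or -0.22 without CE456_10 and -0.03 with the block. Club and ciliated cell genes were lower in 11 of 13, with a median of -1.20, which turned to 0.11 without CE454 and was -0.03 with the block. They summed to 1748 CPM in CE475_1, of Variant 1, and to 423 to 648 CPM in the other high-score tumours, of Variant 3. The low-score tumours had 1598 to 1796 CPM in Variant 1 and 505.3 to 999.7 CPM in Variant 3. Apart from variant and guide, what tumours of a code share is not in the labels, and its part in these values was not tested.

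**Figure D4:**
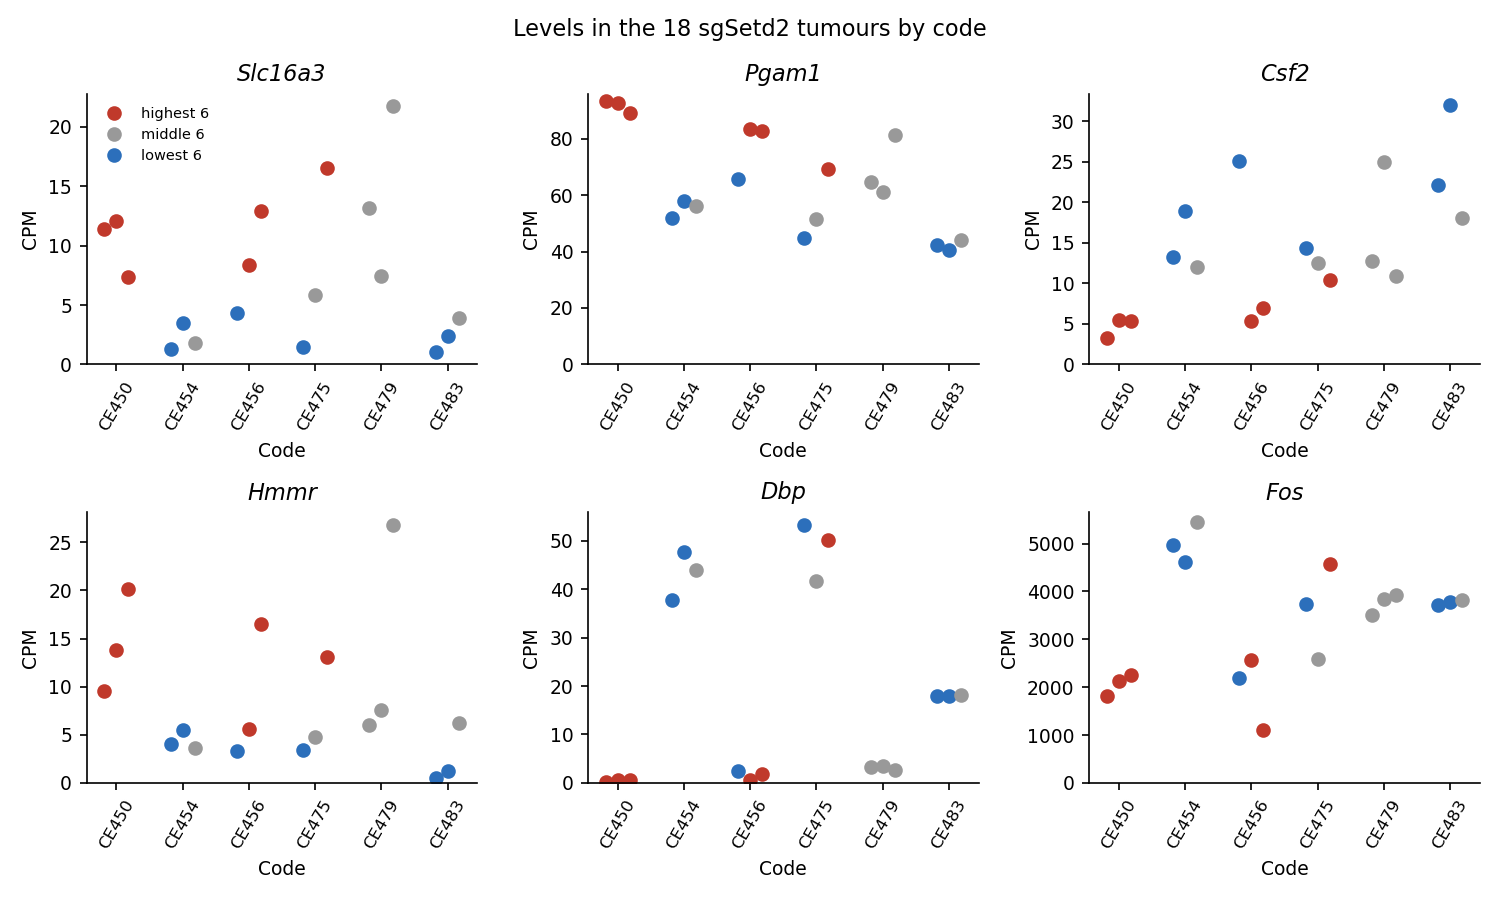
CPM (y axes) of 6 genes in the 18 sgSetd2 tumours by code (x axes), coloured by score group. Slc16a3, Pgam1, Csf2 and Hmmr did not overlap between the score groups, so their red and blue points are necessarily apart within CE456 and CE475 too. The Dbp points of a code lie close together, and Fos is higher in the red than the blue point of CE475.

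Other lists had small differences, several of which changed sign with the setting. Growth arrest genes were lower in 17 of 21 (median -0.28, and -0.03 with code as a block) and p53 targets in 17 of 24 (median -0.15, and 0.04 with the block). Ribosomal protein genes were higher in 28 of 30 but by a median of only 0.09, or 0.21 without CE456_10, and by within-code values in 30 of 30 in CE475 and 6 of 30 in CE456. Alveolar type 2 cell genes were lower in 14 of 18, with a median of -0.14 that was -0.32 without CE456_10 and 0.11 with the block. The leading surfactant gene Sftpc had 63540 to 96370 CPM in high-score and 74150 to 109800 CPM in low-score tumours. Interferon response genes were higher in 26 of 30, with a median of 0.30, and 0.89 with the block. They summed to 1352 CPM in CE456_6 and 984 CPM in CE456_9, and to 364 to 648 CPM in the other 4 high-score tumours. None of the 30 had an unadjusted p under 0.05 with edgeR, and DESeq2 called 0 of them.

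The 18 sgNeo tumours, which had no part in the choice, were used to look at the same genes. In these, the slope of each gene on the score was fitted by edgeR with variant as a covariate. Genes that rose with the score numbered 1288 (7.38% of 17441), and 1058 fell (6.07%). Of 57 spindle genes 45 rose and of 26 origin licensing genes 13 rose, with median slopes of 0.89 and 0.39 log2 units per unit of score. In the 18 sgSetd2 tumours the medians were 0.79 and 0.06. The score is itself a mean of cell cycle genes, so in the tumours of either guide the slopes of cell cycle lists on it are a description and not independent support. Hmmr had a slope of 0.98 (SE 0.15) and Rrm2 of 0.91 (SE 0.16) per unit of score in sgNeo tumours. The sgNeo libraries shared no tumour with the sgSetd2 comparison.

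Of the 24 glycolysis genes 3 rose in sgNeo tumours, a share near the 7.38% of all genes that rose. They were Pgam1 (slope 0.18, SE 0.05; edgeR adjusted p = 0.0235), Tpi1 (slope 0.21, SE 0.06; edgeR adjusted p = 0.0178) and Pgk1 (slope 0.22, SE 0.06; edgeR adjusted p = 0.0179). The median slope of the 24 genes was 0.09, against 0.27 in sgSetd2 tumours. Slc16a3 had a slope of 0.52 (SE 0.27; edgeR adjusted p = 0.228) and Csf2 of -0.30 (SE 0.12; edgeR adjusted p = 0.116), both in the direction of the sgSetd2 tumours but not past the test. Pdlim2 fell (slope -0.78, SE 0.19; edgeR adjusted p = 0.0103), as did Dusp7 (slope -0.29, SE 0.08; edgeR adjusted p = 0.0171) and Clic5 (slope -0.56, SE 0.15; edgeR adjusted p = 0.0159). Ptges had the opposite sign, with a slope of -0.14 (SE 0.09; edgeR adjusted p = 0.346). The median slope of the immediate early genes was -0.06, against -0.37 in sgSetd2 tumours.

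Alveolar type 2 cell genes fell in 11 of 18 in sgNeo tumours, with a median slope of -0.33 against -0.12 in sgSetd2 tumours. Fatty acid synthesis genes fell in 14 of 18, and ribosomal protein genes rose in 23 of 30. The interferon list had a median slope of -0.30 in sgNeo and 0.24 in sgSetd2 tumours, with 1 of 30 falling in sgNeo tumours. A difference in slope between the guides was not shown for any gene. An edgeR interaction of guide and score over the 36 tumours, added after the data were seen, called 0 of 16309 genes (0.0%). Its smallest adjusted p was 0.201, and at an unadjusted p under 0.05 the slope was higher in sgSetd2 tumours for 578 genes and in sgNeo tumours for 696.

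**Figure D5:**
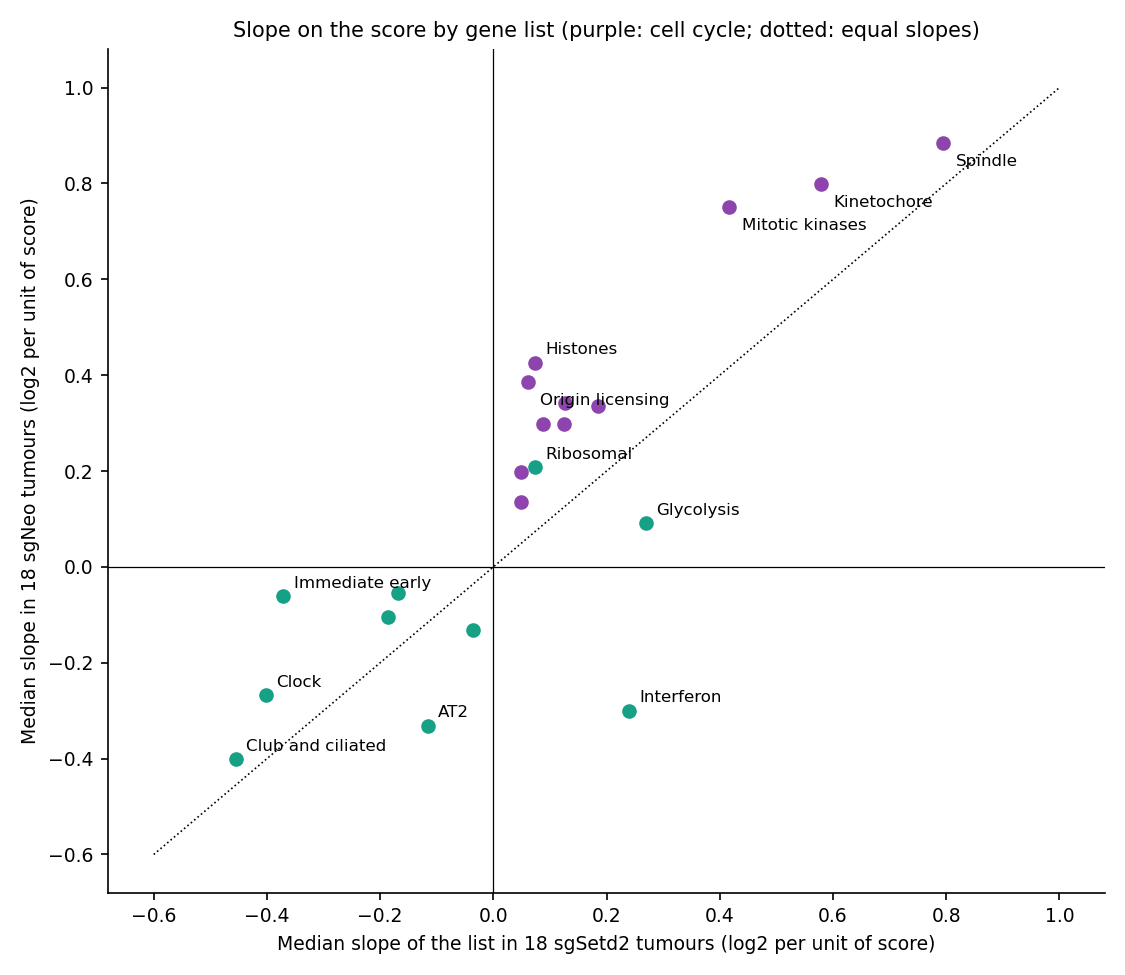
Each point is a gene list at its median slope on the score in 18 sgSetd2 tumours (x axis) and 18 sgNeo tumours (y axis), in log2 units per unit of score, with a dotted line where slopes are equal. Mitotic lists (purple, right) are high on both axes at 0.79 and 0.89 for spindle genes, and origin licensing is at 0.06 and 0.39.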

How the data were processed

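RNA of sorted EGFP-positive tumour cells was sequenced as paired reads from SMART-Seq mRNA libraries, per the labels' protocols, a kit that does not mark strand. The authors deposited 1 table of whole-number counts per gene for 36 tumours. The submitters' processing notes name STAR 2.5.3a, R 4.2 and DESeq2 1.38.3, while the tool that counted reads, the build and the gene models were not found in the labels or headers. Overlapping and antisense genes could share reads. Of 49585 gene IDs 49326 had a symbol. The members and gene lists were chosen with earlier results of these data known, and the clock list was added after the values were seen.

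The 12 tumours were compared with edgeR 4.0.16 in R 4.3.3 (quasi-likelihood, TMM, filterByExpr, variant as covariate, Benjamini-Hochberg adjustment over all tested genes at 0.05). The score genes stayed in the fit and left the results. A gene was named where it was among the 5 of smallest p in a direction (since fewer than 5 passed), among the 2 of largest log2 fold change in a cell cycle list with a mean of at least 5 CPM, or Setd2, Eml4 or Alk. Further glycolysis, immediate early, clock and cell type genes were named after their values were seen. Single values were tested by exact permutation. On simulated counts for the 12 tumours over 14307 genes with 200 changed, 44% of 2-fold and 79% of 4-fold changes were found, with 5 false calls. The changed genes were drawn from those with higher counts. The simulated tumours were independent, with no effect of variant or code, a setting easier than the data. Alternatives were DESeq2 1.42.0, limma 3.58.1 voom with codes as random blocks (correlation within a code 0.35), other scalings and filters, code, sex or no covariate, sums per code, and each tumour or code left out. Gene positions are from GENCODE vM21 (GRCm38), which may not be the authors' build, and promoter sequences from RefSeq (GRCm38.p6). Some genes of the lists are not reported here by name.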

Additional observations from a re-analysis of the deposited data

Results flagged for a closer look

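In groups of 6 tumours, a named gene's highest or lowest tumour was listed where its gap to the nearest other exceeded Dixon's 95% limit. Of 110 groups of values 12 were so listed, and chance lists about 1 in 20. CE475_1 was the only high-score tumour of Variant 1, so the tumour and its variant cannot be told apart among the high-score tumours. Among the high-score tumours, CE475_1 was high for Dusp7 (42.7 CPM, others 16 to 23.7), Egr1 (2722 CPM, others 980 to 1490), Nr1d1 (115.6 CPM, others 10.4 to 29.6), Dbp (50.2 CPM, others 0.265 to 1.91) and Clic5 (149 CPM, others 18.7 to 32.7). CE450_1 was high for Nuf2 (18.4 CPM, others 1.81 to 6.98) and Tfdp1 (79.7 CPM, others 58.1 to 63.5), and CE456_9 was low for the histone gene Hist1h1c (26.6 CPM, others 40.0 to 42.8). Among the low-score tumours, CE456_10 was high for Cenpe (17.1 CPM, others 0.32 to 2.63), Plk1 (4.61 CPM, others 1.23 to 2.31) and Setd2 (90.8 CPM, others 25.1 to 44.3), and low for Ldha (1182 CPM, others 1480 to 1640).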

How the results depend on the processing

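The counts of calls moved most. DESeq2 gave 170 genes higher and 80 lower, the slope over 18 tumours 24 and 12, and no filter on low counts 2 and 3, against 0 and 0. Over tumours and codes left out, the counts ran from 0 to 19 higher and from 0 to 22 lower, with the most without CE456_10 and with 1 and 2 without the code CE456. The other settings gave 0 and 0. In sgNeo tumours, 773 genes rose without the 3 tumours of highest score, 1597 fell with DESeq2, and over left-out tumours 995 to 1480 rose and 765 to 1277 fell. The difference of mean total counts ran from -7.61 to 8.91 M counts and was negative without CE456_9 (-7.61) or CE483_4 (-1.05), and that of Setd2 ran from -10.4 to 3.17 CPM, positive without CE456_10. Named log2 fold changes that changed sign were Uhrf1 (-0.14) and Eml4 (-0.0063) with sex as a covariate, E2f2 (-0.32 without variant), Hist1h1c (-0.063 with code as a block), and, over tumours and codes left out, E2f2 (-0.087 to 0.62), Hist1h1c (-0.053 to 0.54), Ldha (-0.073 to 0.46), Fos (-0.99 to 0.045) and Arntl (-0.34 to 2.11). Of the larger list medians, those that did so there were club and ciliated cell genes (-1.48 to 0.11), MAPK feedback (-0.39 to 0.000325) and immediate early genes (-0.93 to 0.021). Medians nearer to no difference did so more often: of all 37, 7 changed sign without CE456_10 and 8 with code as a block. Smaller medians also moved: by over 0.1 and over 50% of their value in 11 of 31 settings for alveolar type 2 (-0.39 to 0.11), 7 each for replication fork (-0.10 to 0.25), homologous recombination (0.085 to 0.46) and histone genes (-0.38 to 0.27), 6 for interferon (-0.20 to 0.89) and 5 for origin licensing genes (-0.21 to 0.16), against 0 of 31 for spindle, kinetochore, mitotic kinase and glycolysis genes. By the same measure the most moves of any list, 13 of 31 settings, were for mitochondrial genome (-0.65 to 0.32) and WNT target genes (-0.37 to 0.69). The cause was not tested. A fit within Variant 1 was not run, with 1 tumour against 3. No paired analysis was possible by replicate number because the numbers in the titles link no tumours across groups, and code served as the block in its place, with 0 genes called. Total counts were at least 22.6 M in the sgSetd2 tumours and 17.9 M over all 36 tumours, and low-level genes were the least certain. Rrm2 was at 0 in CE456_10 (54.7 M counts). Cdc7 was at 0 in CE483_3 (40.6 M) and CE483_4 (26.1 M), both low-score tumours of the same code. The cause of these zeros was not tested.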
